A study of Homo sapiens with 36 samples.

Results

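The data described here are the transcriptomes of NT2/D1-A4 cells given cisplatin alone and of their untreated controls. NT2/D1-A4 is a cisplatin-resistant clone of NT2/D1, a human testicular embryonal carcinoma cell line, so each group comes from a single clone of 1 line and the sensitive parental cells were not part of the series. Of the 36 RNA-seq libraries in the series, 6 belong to this comparison: 3 labelled VC (treatment given as Control) and 3 labelled Cisplatin, which received 0.5 µM cisplatin for 6 h and were harvested for RNA 24 h after treatment. Members were chosen by their labels and not by any measured value, and all 16431 genes of the NT2/D1-A4 table were tested. Cisplatin in the same cells after 3 days of 1 µM GSK-J4, an inhibitor of the histone H3K27 demethylases KDM6A and KDM6B, is used below only to set the response beside others. The same holds for cisplatin in 2102EP-C1, a resistant clone of another embryonal carcinoma line, either untransduced or carrying the empty vector pLKO.1. In these groups too, cisplatin was given at 0.5 µM for 6 h, with harvest 24 h after treatment. The study calls the 3 libraries of a group biological replicates without saying whether they were separate cultures, so the p-values measure the spread between libraries.

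Cisplatin forms crosslinks between DNA bases, and these block replication forks and transcription. The damage signal stabilizes the transcription factor p53, which switches on genes for cell-cycle arrest, for death receptors and mitochondrial death factors, for nucleotide supply and lesion bypass, and for its own negative regulators. Embryonal carcinoma cells carry intact p53 in most cases and keep the pluripotency network of POU5F1 (OCT4), SOX2 and NANOG, and testicular tumors made of such cells are known for their sensitivity to cisplatin.

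Depth, summed over genes from reads recovered from the deposited values, was 30.4 to 43.3 M reads (M, mega) in VC libraries and 31.0 to 36.8 M reads in Cisplatin libraries. The scaling factors of the deposited values (TMM, trimmed mean of M values) were 0.974 to 0.982 in VC and 0.994 to 0.996 in Cisplatin libraries and did not overlap. For the 9864 genes that averaged 200 reads or more, pairs of replicates differed by 1.31 to 1.79 times the counting noise, so no library was a copy of another. Distances between libraries, each taken over the 500 most different genes of that pair, separated the groups by a narrow margin. All 9 distances from a VC to a Cisplatin library (1.047 to 1.148 log2 units) were larger than the 6 distances within a group (0.965 to 1.043). The cell type was checked on marker genes: all 8 measured embryonal carcinoma markers, among them POU5F1, SOX2, NANOG and LIN28A, were above 1 CPM (a gene's reads scaled to the depth of its library), and their summed level was 7826 to 8007 CPM in VC and 7537 to 7821 CPM in Cisplatin libraries. The seminoma markers TFAP2C and KIT summed to 142 to 151 CPM in VC and 140 CPM in Cisplatin libraries, while SOX17 was not measured. Other markers were lower, with 2.22 to 2.85 CPM in VC and 2.13 to 2.91 CPM in Cisplatin libraries for the yolk sac and endoderm markers AFP and GATA4, and 0.0600 to 0.141 CPM against 0.173 to 0.324 CPM for the neural marker PAX6.

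A gene was called up or down when its fold change was above 1.3 and its Benjamini-Hochberg adjusted p was under 0.05 (limma-trend). In all, 402 genes were called (2.45%), and 4051 (24.7%) had an unadjusted p under 0.05. Cisplatin called up 337 of the 16431 genes, which is 2.05%, and called down 65, which is 0.396%. With no fold limit, 961 genes were higher (5.85%) and 589 were lower (3.58%) at an adjusted p under 0.05. The response was small per gene. The middle 50% of the genes called up lay between 0.44 and 0.73 on the log2 scale, and 26 of them more than doubled, while 6 of the 65 genes called down fell by more than 2-fold. All 3 Cisplatin libraries lay on the same side of all 3 VC libraries for 98.2% of the genes called up and for each of the 65 called down, against 17.1% of all genes above and 15.4% below. This separation is not separate evidence, because the calls rest on the same libraries. Leaving out single libraries gave 229 to 277 genes up, and the count of genes down went from 65 to 42 without VC replicate 1.

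**Figure D1:**
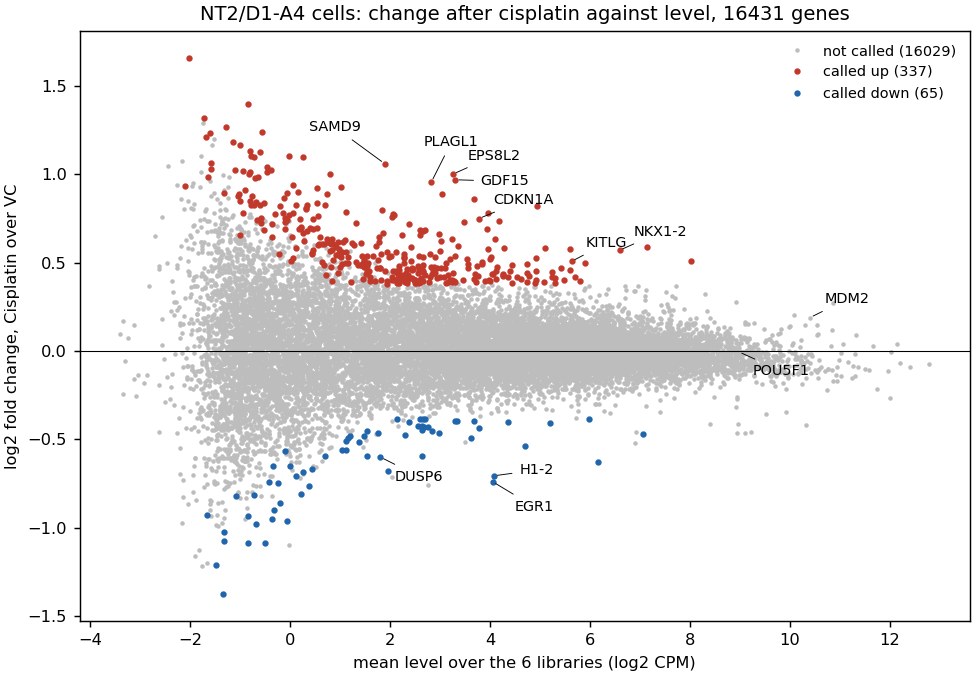
Each point is a gene, with its mean level over the 6 NT2/D1-A4 libraries in log2 CPM on the horizontal axis and its log2 fold change of Cisplatin over VC on the vertical axis. The 337 genes called up (red) outnumber the 65 called down (blue), MDM2 is at 0.19 among the most abundant genes, and the largest changes are at low levels.

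Called genes of both directions had lower median levels than the whole table. The median level was 3.79 CPM for genes called up and 2.75 CPM for genes called down, against 12.3 CPM over all genes, and 13.9% and 12.3% of the called genes reached 16 CPM, against 46.0%. Of the genes called up, 309 were protein coding (91.7%) and 26 were long noncoding RNA (lncRNA) genes (7.72%). The genes called down held 37 protein-coding genes (56.9%) and 25 lncRNA genes (38.5%), where the table as a whole held 82.2% and 12.3%. Median genomic span of the protein-coding genes was 32.8 kb (kilobases) for those called up, 13.2 kb for those called down and 33.3 kb for all. The largest changes of all were in genes with few reads: MR1, which presents microbial metabolites to T cells, rose by 1.66 on the log2 scale on 2, 6 and 0 reads in VC against 12, 11 and 13 in Cisplatin libraries.

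Where groups did not overlap and a gene averaged 1 CPM or more, the 10 largest rises were those of CD79B, SAMD9, EPS8L2, HES2, GDF15, PLAGL1, CACNB4, MYPN, ABCA12 and CLDN1. SAMD9 (chromosome 7: 93099518-93117979), an interferon-inducible restriction factor, had 1.55, 1.37 and 1.16 log2 CPM in the VC libraries and 2.40, 2.53 and 2.33 in the Cisplatin libraries. The groups were separated by more than the range within either, and the rise was 2.08-fold (log2 fold change 1.06, SE 0.12, adjusted p 2.9e-05). EPS8L2 (chromosome 11: 706231-727727), a relative of the actin-remodelling protein EPS8, went from 2.68, 2.72 and 2.88 log2 CPM to 3.77, 3.71 and 3.80, with a log2 fold change of 1.00 (SE 0.07, adjusted p 3.62e-08). Its span overlaps that of DEAF1, as 13 of the 48 called genes that the naming rule chose overlap another measured gene, and the strand setting of the read counting is not given in the sources used here.

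PLAGL1 (chromosome 6: 143940300-144064599), an imprinted zinc-finger transcription factor, had 2.31, 2.43 and 2.31 log2 CPM in VC and 3.27, 3.27 and 3.36 in Cisplatin libraries. All 3 Cisplatin values were far above the VC range, and the log2 fold change was 0.95 (SE 0.08, adjusted p 4.47e-07). CLDN1 (chromosome 3: 190305707-190322446), a claudin of epithelial tight junctions, rose by 0.89 (SE 0.09, adjusted p 3.48e-06). The remaining large rises were at levels near 1 to 2 CPM: CD79B, a subunit of the B cell receptor, rose 2.14-fold, and on the log2 scale HES2, a repressor of the Hes family, rose by 1.00, CACNB4, a calcium channel subunit, by 0.94, and MYPN, a sarcomeric scaffold protein, by 0.92. Their adjusted p values ran from 5.1e-05 for HES2 to 0.00699 for CACNB4.

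Known p53 targets were divided into 3 lists by role, and 97 of the 103 listed genes were measured. These lists, and those used below, were chosen with earlier results of these data known. Their shares against all genes are therefore descriptions and not an independent test. Of the 97, 19 were called up (19.6%, against 2.05% of all genes) and 0 were called down. Their median log2 fold change was 0.20, against a median of -0.0001 over all genes, and 85 of the 97 were higher with cisplatin. The mean deviation of the 97 genes from their VC mean was -0.006 to 0.006 in the VC libraries and 0.228 to 0.243 in the Cisplatin libraries, so the shift was of similar size in each of the 3 treated libraries.

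In the list of arrest and feedback genes, 5 of 23 were called up, and the median was 0.23. CDKN1A (chromosome 6: 36676463-36687332), which encodes the cyclin-dependent kinase inhibitor p21, had 3.51, 3.32 and 3.38 log2 CPM in VC and 4.07, 4.24 and 4.14 in Cisplatin libraries. The groups did not overlap, and the rise was 1.68-fold (log2 fold change 0.75, SE 0.06, adjusted p 4.08e-07). BTG2 (chromosome 1: 203305519-203309602), an antiproliferative factor that promotes mRNA deadenylation, went from 3.07, 3.08 and 3.20 to 3.80, 3.92 and 3.81, a log2 fold change of 0.73 (SE 0.07, adjusted p 1.76e-06). PLK2, a kinase of centriole duplication, rose by 0.58, TP53INP1, a promoter of p53 activity and autophagy, by 0.53, and TRIM22, an interferon-inducible ubiquitin ligase, by 0.43. TRIM22 dropped under the fold limit without Cisplatin replicate 3, at 0.38.

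The main negative regulator of p53 moved less. MDM2 (chromosome 12: 68808172-68850686), the ubiquitin ligase that degrades p53, had 10.33, 10.30 and 10.28 log2 CPM in VC and 10.52, 10.48 and 10.47 in Cisplatin libraries, a log2 difference of 0.19 (SE 0.05, adjusted p 0.0256) that was under the fold limit.

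Of the p53 targets that act in cell death, 26 of 28 were measured, 5 were called up, and the median was 0.17. FDXR (chromosome 17: 74862497-74872994), the ferredoxin reductase of mitochondria, had 3.86, 3.88 and 3.73 log2 CPM in VC and 4.54, 4.59 and 4.52 in Cisplatin libraries, and it rose 1.66-fold (log2 fold change 0.73, SE 0.06, adjusted p 2.2e-07). Further rises in this list were in receptor and ligand genes of the tumor necrosis factor family. TNFRSF10C, a decoy receptor for TRAIL, rose by 0.79 (SE 0.13), TNFSF9, the ligand of the receptor 4-1BB, by 0.62 (SE 0.11), and FAS, the death receptor CD95, by 0.49 (SE 0.09).

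The BH3-only genes of the list differed. BBC3 (PUMA), an activator of mitochondrial death, had 2.46, 2.30 and 2.41 log2 CPM in VC and 2.72, 3.16 and 2.89 in Cisplatin libraries, a log2 fold change of 0.53 (SE 0.10, adjusted p 0.00217). PMAIP1 (NOXA), the other BH3-only gene, had 5.53, 5.54 and 5.57 against 5.60, 5.64 and 5.66 log2 CPM, a log2 difference of 0.08 (SE 0.06, adjusted p 0.411). BAX, a pore former of the outer mitochondrial membrane, differed by 0.10 (SE 0.04, adjusted p 0.142). Neither PMAIP1 nor BAX passed the test. Their 3 Cisplatin libraries lay above the 3 VC libraries, as was the case for 17.1% of all genes.

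Of the p53 targets in repair, metabolism and signalling, 48 of 52 were measured, 9 were called up, and the median was 0.22. GDF15 (chromosome 19: 18386158-18389176), a stress-induced cytokine, had 2.55, 2.88 and 3.03 log2 CPM in VC and 3.72, 3.86 and 3.79 in Cisplatin libraries, a 1.96-fold rise (log2 fold change 0.97, SE 0.09, adjusted p 1.19e-06). ABCA12, a lipid transporter of the epidermis, rose by 0.90 (SE 0.19), and DGKA, a diacylglycerol kinase, by 0.60 (SE 0.14), both at levels under 2 CPM, and DGKA lost its call without VC replicate 1. KITLG (chromosome 12: 88492793-88580471), the ligand of the receptor KIT and a gene of germ cell development, went from 5.36, 5.35 and 5.42 to 5.87, 5.85 and 5.94 log2 CPM, a log2 fold change of 0.51 (SE 0.05, adjusted p 3.43e-06). ANXA4, a membrane-binding annexin, rose by 0.56 (SE 0.07).

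The other genes called up in this list were DRAM1, LIF, CMBL and SERTAD1, with log2 fold changes of 0.49, 0.43, 0.42 and 0.41. Of 6 further members that the naming rule describes, called or not, 4 had an adjusted p under 0.05 and stayed under the fold limit. DDB2, which recognises helix-distorting lesions, differed by 0.29 (adjusted p 0.0029), POLH, the polymerase that bypasses cisplatin adducts, by 0.29 (adjusted p 0.00116), RRM2B, a subunit of ribonucleotide reductase, by 0.26 (adjusted p 0.00441), and SESN1, a stress-induced inhibitor of mTORC1, by 0.26 (adjusted p 0.00256). XPC, the damage sensor of nucleotide excision repair, differed by 0.14 (adjusted p 0.0987), and SESN2, a relative of SESN1, by 0.15 (adjusted p 0.0782), and neither passed the test.

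**Figure D2:**
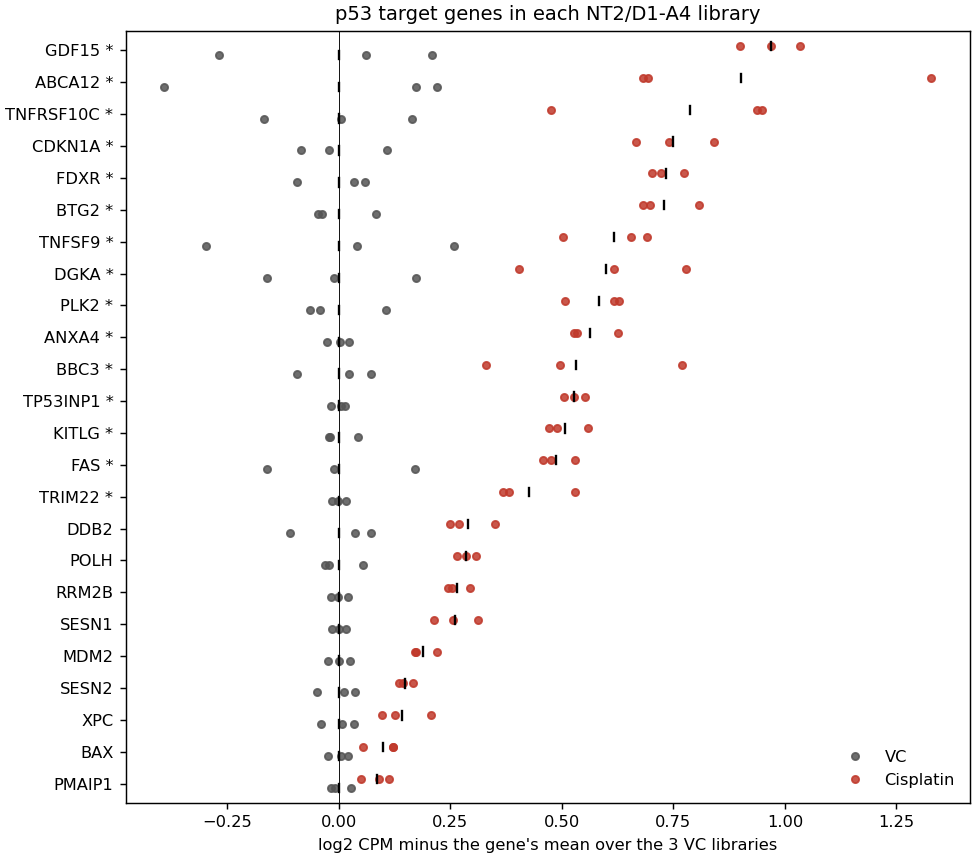
Each row is a p53 target, each point a NT2/D1-A4 library (grey VC, red Cisplatin), and the horizontal axis is the log2 CPM minus the gene's mean over the 3 VC libraries; ticks are group means and stars mark genes called up. GDF15 is at the top with 0.97, and BAX, PMAIP1 and MDM2 lie to the right of their VC points by 0.10, 0.08 and 0.19.

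p53 binds DNA as a pair of half-sites of 10 bases each. The promoters of called genes were searched for the exact consensus half-site, in the window from 250 bases before to 50 bases after the annotated start (RefSeq, GRCh38.p14). The consensus reads the same on both strands. Of 12328 tested genes with a promoter sequence, 660 held at least 1 half-site (5.35%), against 25 of the 255 genes called up (9.80%) and 1 of the 45 called down (2.22%). The p53 targets called up had a promoter sequence for 14 of 19, and 3 of the 14 held a half-site, so most of them showed no exact half-site in this window. The 5 named genes called up that held a half-site are printed 5′ to 3′ on the strand of the gene, with up to 15 flanking bases on each side and the half-site in capitals, to show what the match looked like in genes that rose.
FDXR (chr17:74872981-74873020, minus strand): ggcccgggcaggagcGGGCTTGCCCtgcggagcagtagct
PLK2 (chr5:58460194-58460233, minus strand): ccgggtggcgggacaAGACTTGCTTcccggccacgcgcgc
ABCA12 (chr2:215138684-215138723, minus strand): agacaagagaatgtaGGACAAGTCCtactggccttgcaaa
NKX1-2 (chr10:124449986-124450023, minus strand): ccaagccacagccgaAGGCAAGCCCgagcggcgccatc
ISG15 (chr1:1013356-1013395, plus strand): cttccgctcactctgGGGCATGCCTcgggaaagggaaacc
A match of these letters describes the sequence and is not evidence of binding in these cells.

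The genes that fell were fewer and included growth-signal genes, a linker histone gene and lncRNA genes. EGR1 (chromosome 5: 138465479-138469303), a zinc-finger transcription factor of the immediate early response, had 4.41, 4.40 and 4.45 log2 CPM in VC and 3.67, 3.72 and 3.65 in Cisplatin libraries. The values within a group were within 0.1 of each other, and the log2 fold change was -0.74 (SE 0.07, adjusted p 3.12e-06). DUSP6 (chromosome 12: 89347235-89352501), the phosphatase that is induced by and switches off ERK, went from 1.96, 2.17 and 2.19 to 1.36, 1.64 and 1.51, a log2 fold change of -0.60 (SE 0.10, adjusted p 0.00142).

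Linker histones bind the entry of DNA to the nucleosome. H1-2 (chromosome 6: 26055740-26056470), a replication-dependent member of this family, went from 4.36, 4.48 and 4.45 to 3.61, 3.70 and 3.86, a log2 fold change of -0.71 (SE 0.07, adjusted p 8.45e-06). H1-2 was the only one of 16 measured replication-dependent histone genes that was called in either direction (6.25%, against 2.45% of all genes), and 8 of the 16 were higher and 8 lower. Transcripts of most replication-dependent histone genes lack a poly(A) tail, and the libraries were made with an mRNA kit, so the levels of this list reflect what such a kit retains.

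The remaining large falls were in genes near 1 to 4 CPM. CDK20, a cyclin-dependent kinase, fell by 0.81 (SE 0.17, adjusted p 0.00468), and the lncRNA gene LOC124901321 fell by 0.68 (SE 0.14, adjusted p 0.00565). UQCC3, an assembly factor of respiratory complex III, LOC124903021, LOC105376166 and LOC107985705 had log2 fold changes of -0.71, -0.76, -0.68 and -0.67. These last 4 genes each lost the call when any of 3 to 5 of the 6 libraries was left out, and UQCC3, LOC124903021, LOC107985705 and LOC124901321 each overlap another measured gene.

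Outside the p53 lists, 318 of the 337 genes called up remain. The p53 lists are a chosen set and not a complete record of p53 targets, so the 318 can include further targets. To describe other programs, 12 further lists were used. For lists with 0 called genes, the share to set beside them is the 2.45% of all genes that were called. Of 30 measured pluripotency genes, 0 were called, and the median was -0.02. POU5F1 had 8.97, 8.93 and 9.02 log2 CPM in VC and 8.94, 8.99 and 8.98 in Cisplatin libraries, with overlapping groups and a log2 difference of -0.0042 (SE 0.03, adjusted p 0.959). SOX2 differed by -0.16 (adjusted p 0.00505), NANOG by -0.08 (adjusted p 0.185), and DNMT3B, the de novo DNA methyltransferase that is abundant in these cells, by -0.11 (adjusted p 0.121), all under the fold limit. With no fold limit, 5 pluripotency genes were lower and 1 was higher at an adjusted p under 0.05.

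Germ layer and lineage markers were higher in 19 of 22 cases. Of the 22 measured genes of 35 listed, 5 were called up (22.7%, against 2.05% of all genes) and 0 down, and the median was 0.33. This list too was chosen with earlier results of these data known. EOMES (chromosome 3: 27715953-27722713), a T-box factor of mesendoderm, had 1.60, 1.59 and 1.92 log2 CPM in VC and 2.59, 2.34 and 2.48 in Cisplatin libraries, a log2 fold change of 0.77 (SE 0.11, adjusted p 0.000159). COL1A2, a fibrillar collagen chain, rose by 0.45 (SE 0.07, adjusted p 0.000351), GATA3, a factor of trophoblast and other lineages, by 0.47 (adjusted p 0.0112), and TFAP2A, a factor of ectoderm and trophoblast, by 0.45 (adjusted p 0.016). GATA3 lost its call without VC replicate 2, VC replicate 3 or Cisplatin replicate 2, and TFAP2A without VC replicate 2 or Cisplatin replicate 1. The count of 5 was 3 without VC replicate 2 or without Cisplatin replicate 2, and 8 with scaling to library size alone.

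Of the marker sums of other cell types, those of mesoderm, fibroblast and trophoblast were higher in the Cisplatin libraries, and each holds a gene called here (EOMES, COL1A2 and GATA3), so they are not separate evidence. The neural marker PAX6 was higher in all 3 Cisplatin libraries at under 1 CPM, the yolk sac and endoderm sum overlapped between groups, and the seminoma sum was not higher. The mesoderm markers TBXT, EOMES and MIXL1 together gave 4.14 to 5.14 CPM in VC and 6.92 to 7.87 CPM in Cisplatin libraries, the fibroblast markers COL1A1, COL1A2 and THY1 gave 118 to 120 CPM and 124 to 133 CPM, and GATA3 gave 2.64 to 3.39 CPM and 3.76 to 4.21 CPM. In bulk libraries, more cells of a type and more RNA per cell cannot be told apart, and the part of other cell types in these results was not tested.

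Of 61 measured genes that repair crosslinks and replication forks, 0 were called, and the median was -0.02. With no fold limit, POLH and DDB2 were higher and 2 genes were lower, the checkpoint kinase gene CHEK1 by -0.13 (adjusted p 0.0231) and the crosslink nuclease gene DCLRE1A by -0.14 (adjusted p 0.0391), which are named here after their values were seen. Of 31 measured genes of cisplatin transport and detoxification, 1 was called (3.23%), which is near the 2.45% of all genes. GGT1, which cleaves extracellular glutathione, rose by 0.39 (SE 0.09, adjusted p 0.0147), and it lost the call with voom, without VC replicate 3 and without Cisplatin replicate 1. SLC31A1, the copper importer that also takes up cisplatin, differed by 0.05 (adjusted p 0.545), and ATP7B, a copper exporter, by -0.0035 (SE 0.12, adjusted p 0.991).

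Of 60 genes of S phase and mitosis, 0 were called, 44 were higher with cisplatin, and the median was 0.07, with 8 higher and 1 lower at an adjusted p under 0.05 and no fold limit. The list had a mean deviation from the VC mean of -0.019 to 0.014 in VC and 0.046 to 0.053 in Cisplatin libraries.

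Splicing factors had small differences in the other direction. Of 77 measured, 0 were called, 72 were lower, and the median was -0.10. At an adjusted p under 0.05 and no fold limit, 21 were lower and 1 was higher. Of 79 cytosolic ribosomal protein genes, 76 were lower with a median of -0.06, and 2 were lower at an adjusted p under 0.05. Without Cisplatin replicate 1, 50 of the 79 were lower and the median was -0.0197. The mean deviation of splicing factors was -0.0965 to -0.0808 over the Cisplatin libraries and -0.0078 to 0.0123 over the VC libraries. Ribosomal protein genes were spread more widely, from -0.155 to -0.0002 over the Cisplatin libraries and from -0.0172 to 0.0317 over the VC libraries. Scaling to library size alone, which raised the median of all genes by 0.0232, left the medians of splicing factors and ribosomal protein genes at -0.0811 and -0.0363. The same scaling turned the median of 4 lists from just under 0 to just over it, at 0.0025 for pluripotency, 0.0046 for crosslink repair, 0.0003 for the integrated stress response and 0.006 for replication-dependent histones.

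**Figure D3:**
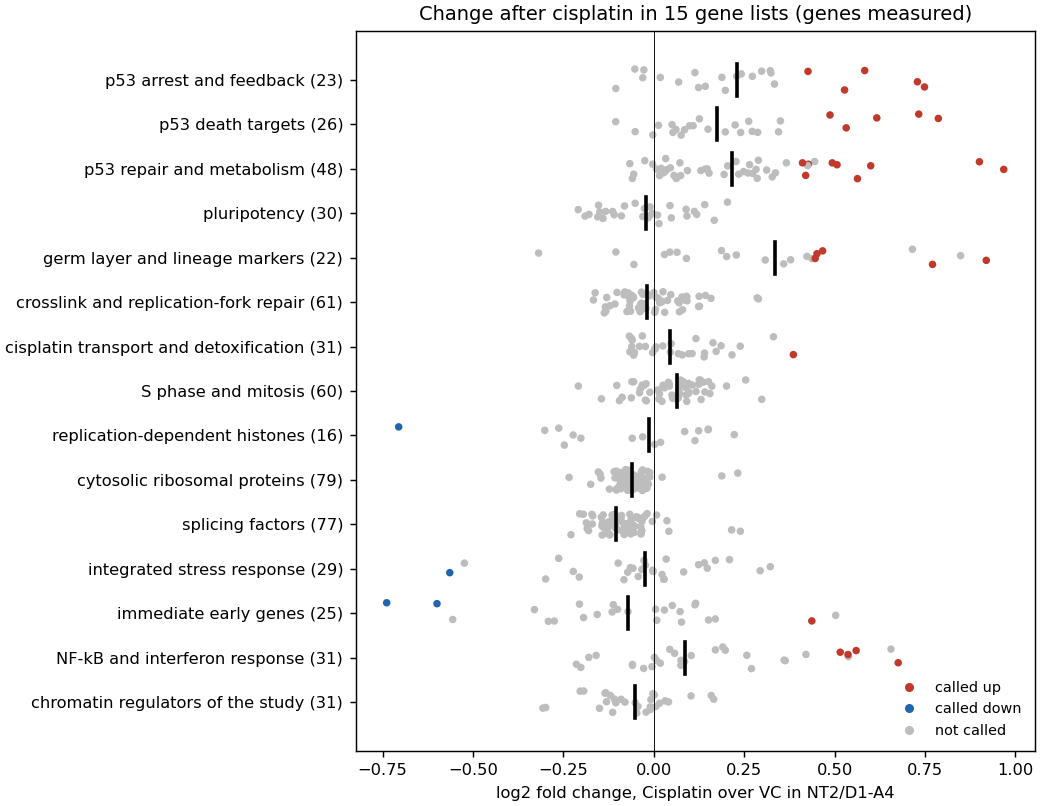
Each point is a gene and its log2 fold change of Cisplatin over VC in NT2/D1-A4 cells, with 1 row per list, the number of genes measured in brackets, and a black line at the median of the list. The 3 p53 lists have medians of 0.17 to 0.23 and red points (called up) at their right ends, the lineage markers 0.33, and the splicing factors -0.10.

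In the integrated stress response, which raises ATF4 targets when translation initiation is inhibited, 1 of 29 genes was called (3.45%, near the 2.45% of all genes). This gene was CHAC1, a glutathione-degrading enzyme, which fell by 0.56 (SE 0.14, adjusted p 0.0167) and lost the call in 5 of 12 alternatives. Of 25 immediate early genes, 2 were called down (8.0%, against 0.396% of all genes), EGR1 and DUSP6. In the same list 1 was called up (4.0%, against 2.05% of all genes), FOSL1, an AP-1 subunit, at 0.44 (SE 0.08, adjusted p 0.00302). FOSL1 dropped under the fold limit without Cisplatin replicate 2, at 0.37.

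In the list of NF-kB and interferon response genes, 31 of 44 were measured, 4 were called up (12.9%, against 2.05% of all genes), and the median was 0.08, which became 0.137 without VC replicate 2. IFIT1, which binds viral RNA, had 2.33, 2.13 and 2.47 log2 CPM in VC and 3.02, 2.87 and 3.07 in Cisplatin libraries, a log2 fold change of 0.68 (SE 0.10, adjusted p 0.000398). EBI3, a cytokine subunit of IL-27 and IL-35, rose by 0.56 (SE 0.11), TAP1, the peptide transporter of antigen presentation, by 0.54 (SE 0.12), and ISG15, a ubiquitin-like modifier, by 0.52 (SE 0.11). The 13 other listed genes were not measured here.

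Chromatin regulators that the study addresses were not called, with 0 of 31 and a median of -0.05. KDM6A (chromosome X: 44873188-45112779) had 6.56, 6.54 and 6.54 log2 CPM in VC and 6.76, 6.68 and 6.70 in Cisplatin libraries, a log2 difference of 0.17 (SE 0.04, adjusted p 0.00966) under the fold limit. KDM6B differed by -0.13 (SE 0.06, adjusted p 0.183) and EZH2, the H3K27 methyltransferase, by 0.0058 (SE 0.04, adjusted p 0.953). BMI1, a subunit of polycomb repressive complex 1, had 7 to 15 reads per library, so that a change was not detectable at this depth (SE 0.31), and RefSeq annotates the readthrough gene COMMD3-BMI1 over the same exons.

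The response was set beside that of the same cells after GSK-J4, which used 6 other libraries of the same table. Cisplatin after GSK-J4 called up 26 genes (0.158%) and down 36 (0.219%). Of the 337 genes called up by cisplatin alone, 17 were also called up after GSK-J4, which is 5.04% of the first list and 65.4% of the second. For the 65 genes called down, 9 were shared, which is 13.8% of the first list, out of 36 called down after GSK-J4. The 337 genes had a median log2 fold change of 0.53 with cisplatin alone and 0.22 after GSK-J4, and 312 of them (92.6%) were higher, against 50.6% of all genes. These genes were chosen by their rise with cisplatin alone, which by itself makes a smaller median likely in other libraries. The 2 medians therefore cannot show by themselves whether the response after GSK-J4 was weaker. Of the 97 measured p53 targets, 19 were called up with cisplatin alone and 2 after GSK-J4 (2.06%, against 0.158% of all genes). Their median log2 fold change was 0.20 alone and 0.13 after GSK-J4, and 85 of the 97 were higher in each case. The lists were chosen with earlier results known, and the difference between these medians was not tested. The count after GSK-J4 (62) was 18 in a fit of its own 6 libraries. It was 22 without GSK-J4 replicate 1, 39 without GSK-J4 replicate 3, 107 without Combination replicate 1, 20 without Combination replicate 2 and 98 without Combination replicate 3.

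Whether GSK-J4 changed the effect of cisplatin was tested gene by gene as an interaction. It passed the same thresholds for 7 genes (0.0426%), all with a smaller rise after GSK-J4, and 1174 genes (7.15%) had an unadjusted p under 0.05. The test uses the VC and Cisplatin libraries that also gave the effect of cisplatin alone. Of the 7, FST, NKX1-2, GDF15, EPS8L2, PLAGL1 and FDXR are described. FST (chromosome 5: 53480629-53487134), the activin antagonist follistatin, had 3.55, 3.60 and 3.57 log2 CPM in VC, 4.34, 4.33 and 4.39 with cisplatin, 5.46, 5.54 and 5.47 with GSK-J4 and 5.63, 5.64 and 5.71 with both. The 4 arms did not overlap, and the cisplatin effect was 0.78 (SE 0.05) alone and 0.17 (SE 0.05) after GSK-J4, a difference of -0.61 (SE 0.07, adjusted p 0.000343). FST passed when any of the 12 libraries was left out.

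NKX1-2 (chromosome 10: 124445243-124450035), a homeobox gene, rose from 6.29, 6.23 and 6.40 to 6.89, 6.87 and 6.86 log2 CPM with cisplatin alone, an effect of 0.57 that was 0.18 after GSK-J4 (interaction -0.39, SE 0.06, adjusted p 0.0147).

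Of the interaction genes described, GDF15 had the widest change of level across arms. It had 2.55 to 3.03 log2 CPM in VC, 3.72 to 3.86 with cisplatin, 6.08 to 6.27 with GSK-J4 and 6.30 to 6.42 with both. Its interaction was -0.77 (SE 0.12, adjusted p 0.0196). The interaction was -0.67 for PLAGL1 (adjusted p 0.027), -0.56 for EPS8L2 (adjusted p 0.027) and -0.44 for FDXR (adjusted p 0.0446). Of the 12 fits without a library, GDF15 passed in 7, NKX1-2 in 6, PLAGL1 in 4, EPS8L2 in 3 and FDXR in 1. FDXR also passed in 2 of 5 other alternatives, and its estimate stayed between -0.49 and -0.40. The count was 1 without Cisplatin replicate 2, GSK-J4 replicate 2 or Combination replicate 2, 2 without VC replicate 1 or GSK-J4 replicate 3, 3 without Cisplatin replicate 3, 4 without VC replicate 2, VC replicate 3 or Cisplatin replicate 1, and 11 without Combination replicate 1.

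**Figure D4:**
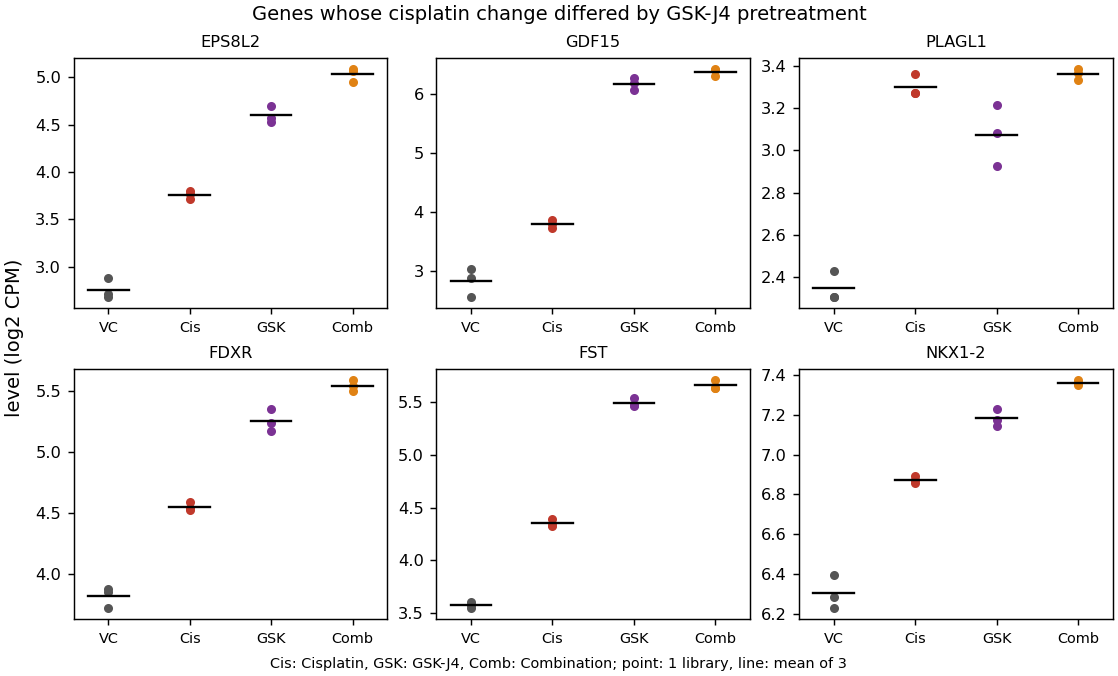
Each panel is 1 of 6 genes with an interaction past the thresholds, with log2 CPM on the vertical axis (each panel has its own range), a point per NT2/D1-A4 library and a line at the mean of 3. In all 6 panels GSK-J4 alone is above VC, and the step from GSK-J4 to Combination (0.17 to 0.44) is smaller than that from VC to Cisplatin (0.57 to 1.00).

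The response of the other resistant line was measured in 2 further experiments with their own controls, and values are given side by side because the tables were normalized separately. In 2102EP-C1 cells, cisplatin called 182 genes (1.07%), of which 150 were up (0.881%) and 32 down (0.188%), and in 2102EP-C1 cells with the empty vector pLKO.1 it called up 417 (2.53%) and down 76 (0.462%). The first count was 118 without VC replicate 1 and 117 without Cisplatin replicate 2, and the second, 493 in all, was 285 with a filter at a mean of 1 CPM. Of 329 NT2/D1-A4 genes called up that were measured in 2102EP-C1, 62 were called up there, which is 18.8% of them and 46.3% of the 134 genes called up in 2102EP-C1 that NT2/D1-A4 measured. In the pLKO.1 experiment 81 of 322 were shared, which is 25.2% and 24.1% of the lists. The genes called up in NT2/D1-A4 had median log2 fold changes of 0.23 in 2102EP-C1 and 0.22 in pLKO.1 cells, and 90.0% and 88.2% were higher, against 48.4% and 48.1% of all genes. Here too the genes were chosen by their rise in NT2/D1-A4, so smaller medians elsewhere do not show a weaker response. Over the 97 measured p53 targets the median was 0.20 in NT2/D1-A4, 0.21 in 2102EP-C1 and 0.21 in pLKO.1 cells. Of the genes called down in NT2/D1-A4, 1 of 62 (1.61%, and 3.45% of the other list) was called down in 2102EP-C1 and 5 of 58 (8.62% and 7.81%) in pLKO.1 cells.

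In total 51 genes were called up in all 3 experiments, and 14 of them were p53 targets of the lists. For comparison, the lists hold 97 of the 16431 genes tested in NT2/D1-A4. The shares of all genes called up were 2.05% in NT2/D1-A4, 0.881% in 2102EP-C1 and 2.53% in pLKO.1 cells. CDKN1A rose by 0.75 in NT2/D1-A4, 0.44 in 2102EP-C1 and 0.63 in pLKO.1 cells. For BTG2 these values were 0.73, 0.55 and 0.77, for GDF15 0.97, 0.71 and 0.60, for FDXR 0.73, 0.68 and 0.70, and for KITLG 0.51, 0.51 and 0.69. Genes outside the p53 lists included HES2 with 1.00, 0.87 and 1.05, EPS8L2 with 1.00, 0.77 and 0.80, and CLDN1 with 0.89, 0.58 and 0.67. EBI3, at 0.56 in NT2/D1-A4, was at 1.34 and 1.03 in the other line.

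Of 321 genes called up in NT2/D1-A4 and measured in both other experiments, 229 were called up in neither. Of all genes tested, 0.881% were called up in 2102EP-C1 and 2.53% in pLKO.1 cells. Most genes called up in NT2/D1-A4 were higher there as well, 90.0% and 88.2% of those measured. PLAGL1, with 0.95 in NT2/D1-A4, had -0.14 in 2102EP-C1 (adjusted p 0.55) and 0.23 in pLKO.1 cells (adjusted p 0.00175, under the fold limit). NKX1-2 had 0.57, 0.09 and 0.10, FST 0.78, 0.25 and 0.16, and EOMES 0.77, 0.23 and 0.13, in the same order. Among genes that fell, H1-2 had -0.71, -0.38 and -0.58, and it was called in pLKO.1 cells and under the fold limit in 2102EP-C1. EGR1 had -0.74 in NT2/D1-A4 against -0.20 and 0.00, and DUSP6 -0.60 against 0.20 and 0.10. Differences between the lines were not tested.

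**Figure D5:**
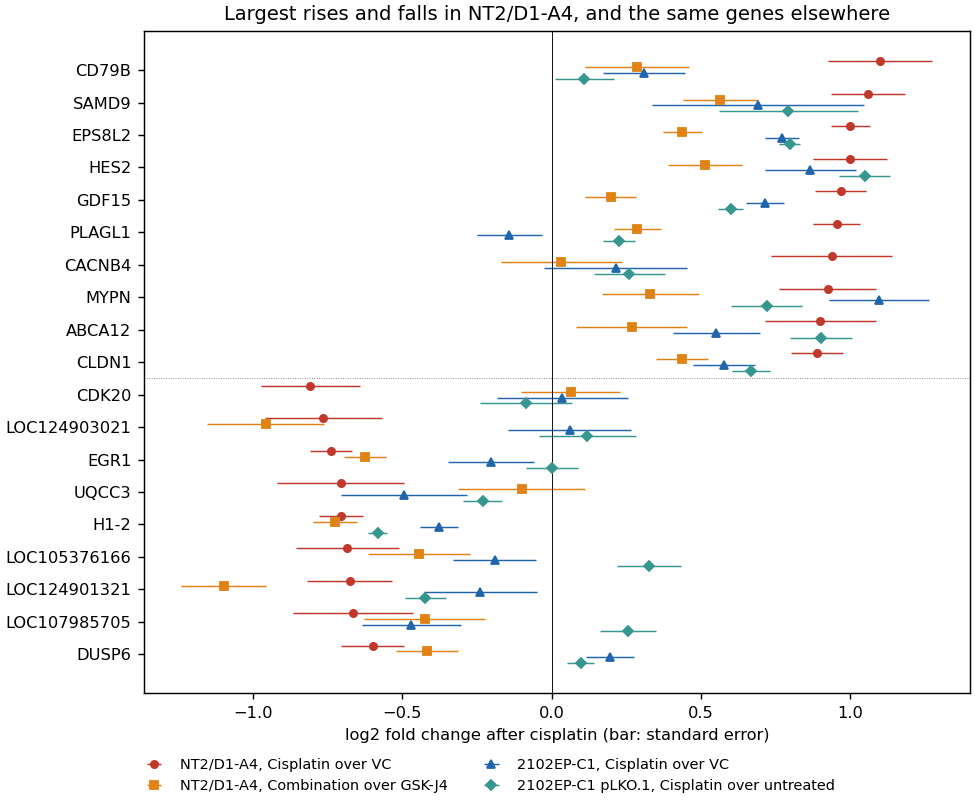
Log2 fold changes after cisplatin (horizontal axis, bars are standard errors) are drawn for the 10 largest rises and 9 of the 10 largest falls of NT2/D1-A4 in 4 comparisons. HES2, EPS8L2, MYPN and CLDN1 lie to the right of 0 in each, PLAGL1 is at -0.14 in 2102EP-C1, and H1-2 lies to the left of 0 in each, while DUSP6 is left of 0 in both NT2/D1-A4 comparisons and right of 0 in both of 2102EP-C1.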

How the data were processed

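RNA-seq libraries were made by the authors with a stranded mRNA kit, trimmed with Trimmomatic, aligned to GRCh38.p14 with STAR and counted per gene with featureCounts. As deposited, the values are log2 CPM of the authors at TMM-scaled library sizes with a prior count of 3, after removal of genes at low CPM. Tool versions and the strand setting of the count are not given in the sources used here. Reads were recovered from these values: each of 45146 values under 50 reads in the NT2/D1-A4 table was within 0.05 of a whole number.

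Each table was fitted on its 12 libraries with limma-trend (limma 3.58.1, R 4.3.3), a mean per group and no block, with two-sided tests and Benjamini-Hochberg adjustment over all genes. The study's methods name limma; the trend, the group means and the absence of a block were chosen here. The thresholds were the study's, 1.3-fold and an adjusted p under 0.05. Fold changes are on the scale of the deposited values, which understates changes of genes with few reads. Sums in CPM use recovered reads. The scripts were tested on simulated data.

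Symbols, positions and promoters came from RefSeq (GRCh38.p14), which matched 16414 of 16431 gene IDs. Named genes were the 10 largest rises and falls at 1 CPM or more on average whose groups do not overlap, up to 5 called genes per list, a fixed set of p53, pluripotency, polycomb and transport genes, and the interaction genes; a few of these are not reported here. MR1, CHEK1 and DCLRE1A were chosen after their values were seen. The members and the 15 lists were chosen with earlier results of these data known. Alternatives were a filter at a mean of 1 CPM, only the libraries compared, the replicate number as a block, leaving out each library, voom, library size alone and a prior count of 0.5. Raw reads were not used here. Computations used Python 3.11.15, numpy 2.4.6, pandas 2.3.3 and matplotlib 3.10.9.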

Additional observations from a re-analysis of the deposited data

Results flagged for a closer look

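The interaction between cisplatin and GSK-J4 in NT2/D1-A4 cells, tested in the limma-trend fit, gave 7 genes whose cisplatin effect differed between untreated and GSK-J4-treated cells. On the log2 scale, in the 6 described here, the effect was smaller after GSK-J4 by -0.61 for FST, -0.39 for NKX1-2, -0.77 for GDF15, -0.56 for EPS8L2, -0.67 for PLAGL1 and -0.44 for FDXR. All 7 were also called up by cisplatin alone, and both comparisons use the same Cisplatin and VC libraries.

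The sign of the PLAGL1 difference was opposite in NT2/D1-A4 and 2102EP-C1 cells. All 3 Cisplatin libraries lay above all 3 VC libraries in NT2/D1-A4 cells, with a log2 fold change of 0.95, and all 3 lay below them in 2102EP-C1 cells, with -0.14, which did not pass the test (adjusted p 0.55). In 2102EP-C1 cells with the pLKO.1 vector PLAGL1 was higher, by 0.23 (adjusted p 0.00175), so both signs occurred in that line. The difference between the lines was not tested.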

How the results depend on the processing

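The count for cisplatin against VC in NT2/D1-A4 (402) stayed within 1.5 times under the 12 alternatives run, at 274 to 340 without single libraries and 361 to 473 otherwise; 337 genes up became 419 and 65 down became 54 with scaling to library size alone, and 42 to 67 were down without single libraries. Of the 337 genes, 64.4% to 71.2% were called again without a library, and of the 65, 49.2% to 63.1%. The interaction count (7) ran from 1 to 11 without single libraries and from 6 to 7 otherwise. Cisplatin after GSK-J4 (62) gave 18 with only the libraries compared and 20 to 107 without single libraries, 2102EP-C1 (182) gave 117 to 172 without single libraries, and pLKO.1 (493) gave 285 with the filter at a mean of 1 CPM and 447 to 512 without single libraries. Apart from the fewer genes or libraries that these alternatives leave, the cause was not tested. Same-numbered VC and Cisplatin libraries of NT2/D1-A4 had correlations of 0.091, -0.008 and -0.006, and not every library correlated best with its own number, so the numbers were not treated as pairs; with the replicate block the counts were 390, 6, 54, 174 and 502 in the order above, and LOC107985705 was the only named gene that lost its call.

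Of the 48 called genes that the naming rule chose, 36 kept the call under every alternative that tested them. Named genes that changed sign were not called and lay near 0: with library size alone POU5F1 was 0.0196, ATP7B 0.0198 and BMI1 0.0085, BMI1 was 0.0508 with voom, and without single libraries POU5F1 ran from -0.0261 to 0.017, EZH2 from -0.0125 to 0.0229, BMI1 from -0.268 to 0.208 and ATP7B from -0.0913 to 0.115. Depth limits genes under about 1 CPM, which are 18.4% of the genes called up and 30.8% of those called down.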
